A study of Mus musculus with 4 samples.

Results

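The genes described here are 10 components of the Notch pathway, namely the receptors Notch1, Notch2 and Notch3, the Jagged ligands Jag1 and Jag2, the DNA-binding factor Rbpj, and the target genes Hes1, Hey1, Heyl and Nrarp. They were chosen by name for their place in the pathway, with earlier results of these data known, and all 10 were among the 26322 genes listed for these cells. Their transcripts were measured by 3′ mRNA sequencing in MC38 cells, a mouse colon carcinoma line. Cells of the control group (sgNT, labelled WT) were electroporated with Cas9 and a non-targeting guide, and cells of the other group (sgCbfb, labelled CbfbKO) with Cas9 and a guide against Cbfb. Cbfb encodes CBFβ, the non-DNA-binding partner of the RUNX transcription factors. RNA was taken no sooner than 1 week after electroporation, and neither group was given any further treatment according to the labels. Each group had 2 libraries. A further replicate was collected in each group but was not sequenced because of its RNA quality. The edited cells came from a transient transfection with 1 guide per group, and no source used here describes them as a clone, so that a result cannot be separated from that guide. Nothing in the labels says that the replicates were separate cultures, so that the spread between these libraries may be technical. The p-values rest only on that spread, and limma, the test used, draws each gene's variance in part from genes of similar level.

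Notch receptors are single-pass membrane proteins that are activated when a ligand on a neighbouring cell pulls on them. ADAM proteases and then γ-secretase cut the bound receptor, and the released intracellular domain moves to the nucleus. There it binds RBPJ and recruits Mastermind coactivators, which turns on targets such as the Hes and Hey repressors and the feedback inhibitor Nrarp. Without the intracellular domain, RBPJ recruits corepressors to the same sites. In the intestine Notch signalling maintains progenitor cells and restrains secretory differentiation, and Notch genes are expressed in many carcinomas.

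Promoter sequence was set beside the expression data for Jag1, Rbpj and the Notch-related gene Dlk1. These had the smallest p-values from limma among the pathway genes described here, and were picked for that reason. Hes1, which also passed and had a larger fold change than Rbpj, had no entry among the promoters used. RBPJ and the RUNX factors each have a short known core motif. The windows run from 250 bases before to 50 bases after a RefSeq start site on GRCm38.p6 and are printed 5′ to 3′ on the strand of the gene. Of the 10 genes, 7 had such a window. Capitals mark matches to the RBPJ core (TGGGAA) in the Rbpj window and to the RUNX core (TGTGGT) in the Dlk1 window, searched on both strands together with the RUNX core variant TGCGGT. The Jag1 window is chr2:137116471-137116770 on the minus strand, the Rbpj window chr5:53590096-53590395 on the plus strand and the Dlk1 window chr12:109452573-109452872 on the plus strand.
Jag1: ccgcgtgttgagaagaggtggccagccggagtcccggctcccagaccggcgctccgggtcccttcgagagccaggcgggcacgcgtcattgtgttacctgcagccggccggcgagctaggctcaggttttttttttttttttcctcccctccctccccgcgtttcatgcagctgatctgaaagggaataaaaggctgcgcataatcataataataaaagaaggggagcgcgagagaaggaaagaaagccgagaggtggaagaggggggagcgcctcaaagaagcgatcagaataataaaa
Rbpj: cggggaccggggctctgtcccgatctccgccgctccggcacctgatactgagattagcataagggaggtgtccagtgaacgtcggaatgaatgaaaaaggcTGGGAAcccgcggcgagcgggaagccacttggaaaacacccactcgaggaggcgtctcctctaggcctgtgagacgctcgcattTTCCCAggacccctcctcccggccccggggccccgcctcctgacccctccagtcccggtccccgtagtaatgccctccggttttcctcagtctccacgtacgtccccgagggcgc
Dlk1: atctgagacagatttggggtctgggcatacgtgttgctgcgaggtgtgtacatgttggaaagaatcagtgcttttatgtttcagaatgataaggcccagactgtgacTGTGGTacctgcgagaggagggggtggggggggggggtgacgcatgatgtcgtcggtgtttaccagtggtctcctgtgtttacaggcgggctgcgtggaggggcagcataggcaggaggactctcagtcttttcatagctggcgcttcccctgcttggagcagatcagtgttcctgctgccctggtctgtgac

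The Rbpj window held 2 matches to the RBPJ core. The first lay at chr5:53590197-53590202, from 149 to 144 bases before the start site of this window, and read along the strand of the gene. The second lay at chr5:53590281-53590286, from 65 to 60 bases before that start site, on the opposite strand. It also fell within the window of a second Rbpj start site. Both Rbpj windows lie inside the span of the gene (chr5:53466152-53657362), so that sequence at its outer 5′ end was not searched. The Dlk1 window held 1 match to the RUNX core, at chr12:109452680-109452685, from 143 to 138 bases before the start site on the strand of the gene. None of the 3 motifs was found in the Jag1 window or in those of Notch1, Notch2, Notch3, Jag2 and Nrarp, nor in that of the pathway gene Neurl1b. Hes1, Hey1 and Heyl had no window. Of 32851 mouse promoter windows of this length, 25.6% held the RBPJ core, 16.8% the RUNX core and 6.45% its variant. Such matches are descriptions of the sequence and not evidence of binding.

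The libraries held between 3189035 and 3907936 reads on genes, so that 1 read was worth 0.256 to 0.314 CPM (reads scaled to the library's total). Values are given as reads and as log2 CPM, the deposited scale, on which a gene without reads sits at -0.79. A 3′ library gives roughly 1 read site per transcript whatever its length, and levels of different genes are compared below on that basis. Cbfb itself fell from 295 and 285 reads in the sgNT libraries to 125 and 125 in the sgCbfb libraries, which is 41.5% of the sgNT level (log2 fold change -1.27 ± 0.12 SE, adjusted p = 1.76e-07 from limma). The Cbfb call was lost without sgCbfb replicate 1 (log2 fold change -1.12, adjusted p = 0.267 from limma), without sgCbfb replicate 2 (-1.41, 0.193), with no filter on low values (0.290) and with no mean-variance trend in limma (0.115). Reads at the 3′ end of an edited transcript do not show whether the protein was made. By immunoblot the paper reports deletion of CBFβ in MC38 cells edited in the same way. Markers of colon epithelium were nearly absent from all libraries: Krt18, Vil1 and Cdx1 had no reads, and the 10 markers together summed to 1.77 to 1.80 CPM in sgNT and 1.79 to 2.20 CPM in sgCbfb libraries. The 7 mesenchymal markers summed to 2570 to 2704 CPM in sgNT and 2269 to 2364 CPM in sgCbfb libraries, most of it from the filament gene Vim, which had 8078 and 8437 against 8669 and 6737 reads. Of the 6 that were tested, the collagen gene Col3a1 fell by 0.90 on the log2 scale (386 and 354 against 217 and 197 reads, adjusted p = 2.46e-06 from limma) and the other 5 did not pass. Among these 5, the growth factor receptor gene Pdgfra had a log2 fold change of 0.53 (121 and 91 against 169 and 152 reads, adjusted p = 0.0515 from limma). That of Vim was -0.18 (2379 and 2530 against 2218 and 2113 CPM, adjusted p = 0.0538 from limma). Col1a1, Col1a2 and Pdgfrb had 0 to 16 reads. The part of this difference in the results below was not tested. Summed levels of 7 leukocyte markers (0 to 1.18 CPM in sgNT, 0.627 to 1.54 CPM in sgCbfb) and of 4 endothelial markers (0.589 to 0.600 and 0.314 to 0.512 CPM) came from at most 6 reads per gene and library, and 5 of the leukocyte markers had no reads. Across 12207 genes that passed the filter on low values (2 or more libraries with a log2 CPM no lower than 0), limma called 345 at an adjusted p under 0.05, or 2.83%. Of these, 192 were higher in sgCbfb cells (1.57% of the genes tested) and 153 were lower (1.25%).

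To ask how loss of CBFβ bears on Notch gene expression, each of the 10 genes was read from the fit across all genes. Jag1 and Hes1 rose and Rbpj fell in sgCbfb cells. Notch1, Notch2 and Hey1 were tested and did not pass. Notch3, Heyl and Nrarp had no reads in any library and Jag2 had 1 read in each of 2 libraries, so that these 4 genes did not reach the filter. Thus 6 of the 10 genes were tested and 3 of the 6 passed, in both directions, beside 2.83% of all tested genes. The median log2 fold change of the 6 was 0.08, beside 0.04 over all tested genes. The libraries of the groups did not overlap for 4 of the 6 genes (Notch2, Jag1, Rbpj and Hes1), beside 44.1% of all tested genes. In bulk RNA a change in the share of cells that express a gene cannot be told apart from a change in RNA per cell.

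**Figure D1:**
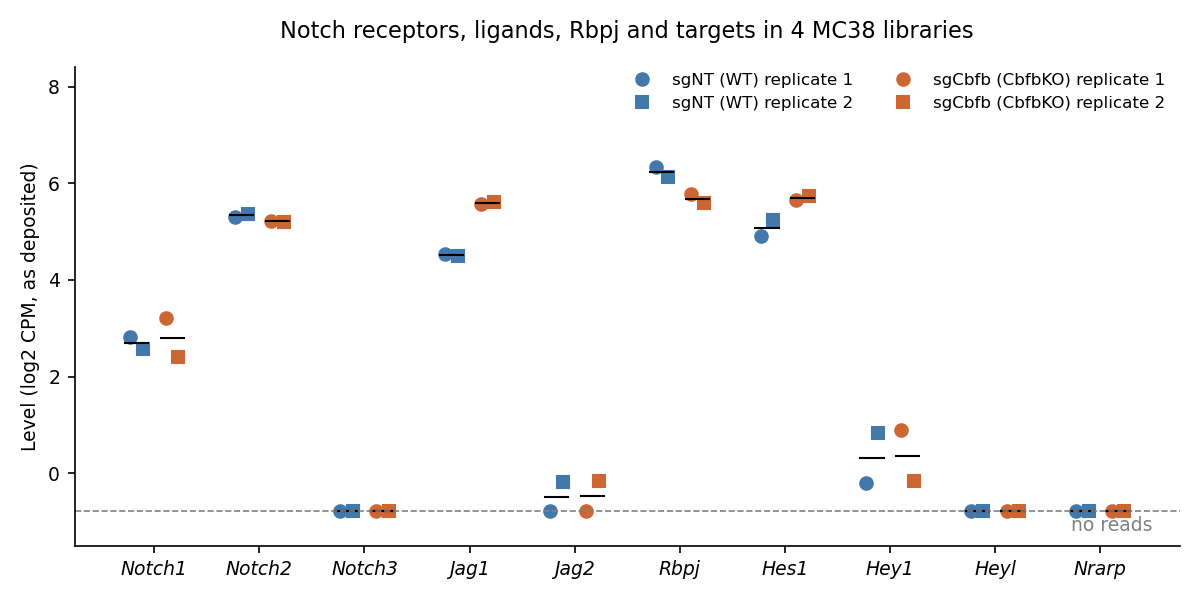
Deposited level (log2 CPM) of the 10 Notch genes in each of the 4 MC38 libraries, with circles for replicate 1, squares for replicate 2, black lines for group means and a dashed line for genes without reads. The sgCbfb libraries sit above the sgNT libraries for Jag1 and Hes1 and below them for Rbpj, while those of Notch1 and Hey1 overlap.

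Of the receptors, Notch2 was the more abundant. Notch2 (chr3:98013527-98150361, plus strand) had 133 and 136 reads in the sgNT libraries and 144 and 115 in the sgCbfb libraries, or 5.31 and 5.37 against 5.23 and 5.20 on the log2 CPM scale. The sgCbfb libraries were thus slightly lower, without overlap, but the log2 fold change of -0.13 (SE 0.14, 95% confidence interval -0.41 to 0.15, n = 2 per group) did not pass (adjusted p = 0.726 from limma). Notch1 (chr2:26457903-26516663, minus strand), the receptor best known from T cell development and leukaemia, had 22 and 18 reads in sgNT and 34 and 15 in sgCbfb libraries. The highest and the lowest value both came from sgCbfb libraries. Its log2 fold change was 0.11 (SE 0.33, interval -0.58 to 0.80, adjusted p = 0.924 from limma). Leaving out sgNT replicate 2 or sgCbfb replicate 1 turned the sign (-0.011 and -0.30). The transcript 0610009E02Rik, on the opposite strand, overlaps Notch1 and had 0 to 4 reads. Notch3 (chr17:32120820-32166852, minus strand), a receptor of smooth muscle and pericytes, had no reads, which allows up to 0.446 CPM in the sgNT group and 0.423 CPM in the sgCbfb group (3 reads over both libraries of a group, counting error only). The summed receptor level was 45.6 to 46.2 CPM in sgNT and 40.8 to 45.5 CPM in sgCbfb libraries.

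Jag1, a ligand for the Notch receptors, showed the largest fold change of the 10 genes. Jag1 (chr2:137081456-137116644, minus strand) had 77 and 73 reads in the sgNT libraries and 183 and 155 in the sgCbfb libraries, or 22.7 and 21.9 against 46.8 and 48.6 CPM. Both sgCbfb libraries were above both sgNT libraries, and the replicates of each group lay close together (log2 CPM 4.51 ± 0.035 and 5.59 ± 0.037, mean ± SD, n = 2 each). The log2 fold change was 1.08 ± 0.15 (SE), a 2.11-fold rise with a 95% interval of 1.71 to 2.60 (adjusted p = 3.43e-05 from limma). By p-value Jag1 ranked 54 of the 12207 genes, and by size of rise it ranked 203. The adjusted p from limma was 0.401 without sgCbfb replicate 1 and 0.396 without sgCbfb replicate 2, where the log2 fold change was 1.11 and 1.05. The call held when either sgNT library was left out. With no low-value filter the adjusted p from limma was 0.0928, and with no variance trend 0.113. Jag2 (chr12:112907819-112929776, minus strand), the other Jagged ligand, had 0 and 1 reads in sgNT and 0 and 1 in sgCbfb libraries. No comparison of Jag2 is possible from 1 read per group. The Jagged ligands together therefore amounted almost wholly to Jag1, at 22.2 to 22.7 CPM in sgNT and 46.8 to 48.9 CPM in sgCbfb libraries.

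Rbpj, the factor that carries the Notch signal to DNA, fell. Rbpj (chr5:53466152-53657362, plus strand) had 272 and 232 reads in the sgNT libraries and 211 and 153 in the sgCbfb libraries, or 80.1 and 69.6 against 54.0 and 48.0 CPM. Both sgCbfb libraries were below both sgNT libraries (log2 CPM 6.23 ± 0.14 in sgNT and 5.69 ± 0.12 in sgCbfb, mean ± SD, n = 2 each). Rbpj fell by 0.55 on the log2 scale (SE 0.12, interval -0.79 to -0.31), to 68.4% of the sgNT level (adjusted p = 0.0064 from limma). Without sgNT replicate 1, the library with the most Rbpj reads, the log2 fold change was -0.45 and the adjusted p from limma 0.153. It was 0.525 without sgCbfb replicate 1 and 0.511 without sgCbfb replicate 2, where the log2 fold change was -0.63 and -0.46. The Rbpj call was also lost under quantile normalisation (log2 fold change -0.58, adjusted p = 0.128 from limma), with no low-value filter (0.603) and with no variance trend (0.319). Mouse Rbpj has 3 processed copies in RefSeq (Rbpj-ps1, Rbpj-ps2 and Rbpj-ps3), none of which was listed, and how reads matching several places were counted is not given in the sources used here. The Rbpj level is uncertain to that extent. Gm10441 and Gm40304, antisense transcripts that overlap the gene, were also not listed.

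Hes1, a basic helix-loop-helix repressor and the best known Notch target, rose in sgCbfb cells while Rbpj fell. Hes1 (chr16:30064384-30067796, plus strand) had 100 and 125 reads in the sgNT libraries and 195 and 168 in the sgCbfb libraries, or 29.4 and 37.5 against 49.9 and 52.7 CPM. The groups did not overlap, but the sgNT libraries were further apart than the sgCbfb libraries (log2 CPM 5.08 ± 0.24 and 5.70 ± 0.055, mean ± SD, n = 2 each). The log2 fold change was 0.62 ± 0.14 (SE), a 1.53-fold rise with an interval of 1.25 to 1.88 (adjusted p = 0.0118 from limma). Without sgNT replicate 1, the library with the fewest Hes1 reads, it was 0.45 and the adjusted p from limma 0.194. Without sgCbfb replicate 1 and without sgCbfb replicate 2 the adjusted p from limma was 0.551 and 0.511, with log2 fold changes of 0.66 and 0.58. The Hes1 call was also lost under quantile normalisation (log2 fold change 0.59, adjusted p = 0.210 from limma), with no low-value filter (0.681) and with no variance trend (0.327).

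The other targets gave little or no signal. Hey1 (chr3:8663359-8667256, minus strand), a Hes-related repressor, had 1 and 4 reads in sgNT and 5 and 1 in sgCbfb libraries. These values overlapped, and the log2 fold change was 0.05 with an interval of -1.10 to 1.19 (adjusted p = 0.983 from limma). The Hey1 estimate turned negative without sgNT replicate 1 (-0.47) and without sgCbfb replicate 1 (-0.48), and under quantile normalisation (-0.05). Heyl (chr4:123233556-123249875, plus strand), another Hes-related repressor, and Nrarp (chr2:25180758-25183339, plus strand), an ankyrin-repeat inhibitor of Notch signalling, had no reads, which allows up to 0.446 CPM in sgNT and 0.423 CPM in sgCbfb cells for each. Expression of the 4 target genes was therefore nearly all Hes1, summing to 29.7 to 38.7 CPM in sgNT and 51.2 to 53.0 CPM in sgCbfb libraries.

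**Figure D2:**
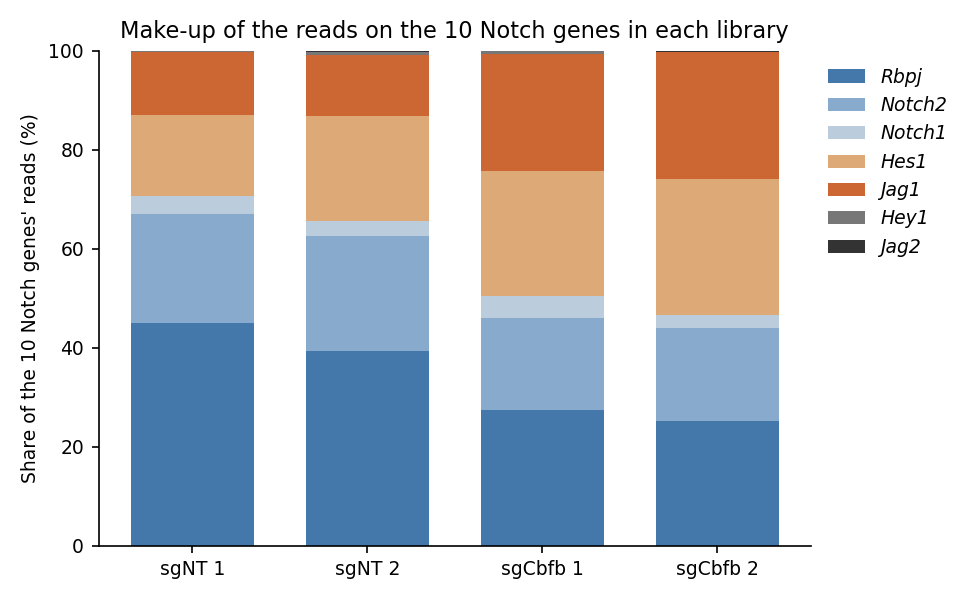
Share of the reads on the 10 Notch genes that fell on each gene (percent, stacked bars), for each library. Rbpj took 45.0% and 39.4% in the sgNT libraries and 27.3% and 25.2% in the sgCbfb libraries, and Jag1 took 12.7% and 12.4% against 23.7% and 25.5%.

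The balance among the 10 genes shifted, whereas their sum moved less. They held 605 and 589 reads in the sgNT libraries and 772 and 608 in the sgCbfb libraries, or 177 to 178 CPM against 191 to 198 CPM. In sgNT cells the order of levels was Rbpj, Notch2, Hes1, Jag1, Notch1 and Hey1, and the libraries of neighbours in that order did not overlap. In sgCbfb cells Hes1 (log2 CPM 5.66 and 5.73), Rbpj (5.77 and 5.60) and Jag1 (5.57 and 5.62) lay at the top. Rbpj overlapped each of the others, while both Hes1 values were above both Jag1 values. Notch2 was below them (5.23 and 5.20), then Notch1 and then Hey1.

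Ratios of reads within a library do not depend on how libraries are scaled to each other. There were 0.579 and 0.537 Jag1 reads per Notch2 read in the sgNT libraries and 1.27 and 1.35 in the sgCbfb libraries, so that the ligand was the less abundant transcript in sgNT cells and the more abundant in sgCbfb cells. Hes1 reads per Notch2 read were 0.752 and 0.919 in sgNT and 1.35 and 1.46 in sgCbfb libraries. There were 0.368 and 0.539 Hes1 reads per Rbpj read in sgNT libraries and 0.924 and 1.10 in sgCbfb libraries. The values for Jag1 per Rbpj read were 0.283 and 0.315 against 0.867 and 1.01. Ratios to Rbpj divide a gene called higher by a gene called lower, so that their shift restates those calls. They also carry the uncertainty of the Rbpj level. Jag1 reads per Hes1 read were 0.770 and 0.584 in sgNT libraries and 0.939 and 0.923 in sgCbfb libraries. With 2 libraries against 2 the smallest two-sided p that an exact permutation test allows is 0.333, and these ratios are given without a test.

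**Figure D3:**
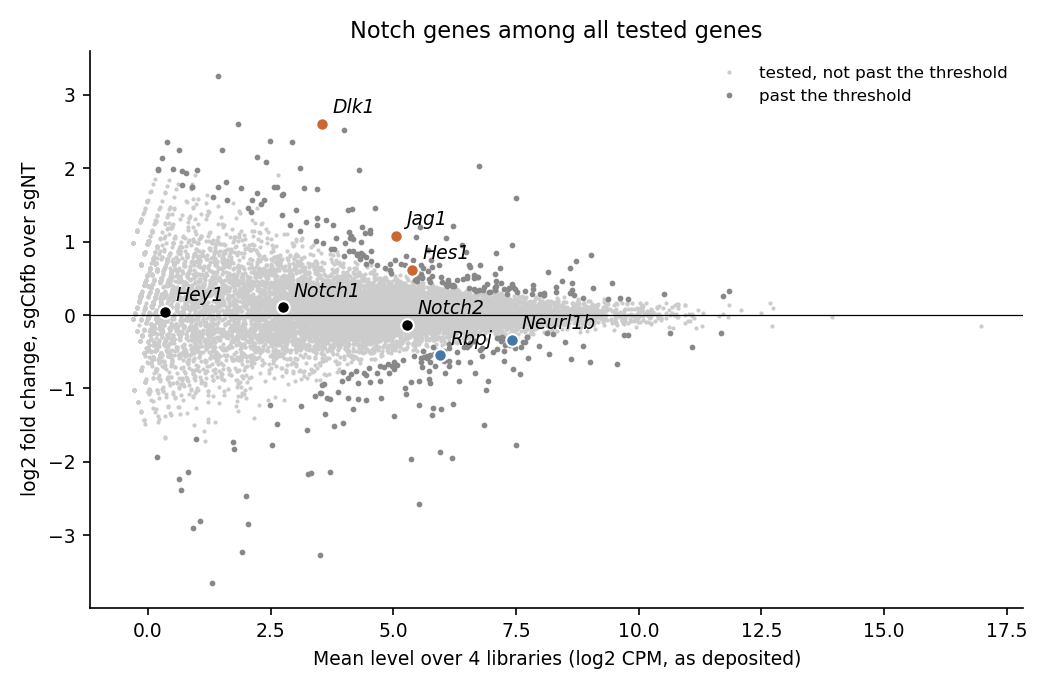
log2 fold change of sgCbfb over sgNT against the mean level over the 4 libraries (log2 CPM) for the 12207 genes tested, with the tested Notch genes, Dlk1 and Neurl1b named, and genes past the adjusted p of 0.05 in darker grey or colour. Dlk1 had the second largest rise of all tested genes, and Jag1, at 1.08, lay above the 95th percentile of 0.71.

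The remaining pathway was read from 58 further genes grouped by role, all of which were listed. Of these, 48 were tested, 1 rose (Dlk1), 1 fell (Neurl1b) and 46 did not pass, where limma called 2.83% of all tested genes. A share of 2 in 48 is near that background. Their median log2 fold change was 0.07, beside 0.04 over all tested genes, and the groups did not overlap for 25 of the 48, beside 44.1% of all tested genes.

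Among the other receptors and ligands, Dlk1 rose more than any of the 10 genes above. Dlk1 (chr12:109452823-109463336, plus strand), an imprinted gene for a membrane protein that resembles the Delta ligands but lacks the domain with which they bind Notch, had 14 and 14 reads in the sgNT libraries and 111 and 90 in the sgCbfb libraries. This is 4.12 and 4.20 against 28.4 and 28.2 CPM, with nearly the same value in both libraries of each group. The log2 fold change was 2.61 ± 0.25 (SE), a 6.10-fold rise with an interval of 4.29 to 8.67 (adjusted p = 1.22e-07 from limma), and only 1 of the 12207 tested genes rose more. The adjusted p from limma was 0.285 without sgCbfb replicate 1 and 0.283 without sgCbfb replicate 2, with log2 fold changes of 2.60 and 2.61. With no variance trend it was 0.113. Dlk1 reads per Jag1 read were 0.182 and 0.192 in sgNT libraries and 0.607 and 0.581 in sgCbfb libraries. Notch4, the endothelial receptor, had 1 and 3 reads in sgNT and 7 and 5 in sgCbfb libraries, a log2 fold change of 0.99 (interval -0.03 to 2.01, adjusted p = 0.354 from limma). The Delta ligands were at the limit of detection: Dll4 had no reads, Dll1 had 1 read in sgCbfb replicate 2, and Dll3 had 1 read in each group. The Delta-like gene Dlk2 had 3 reads in the sgNT and 1 in the sgCbfb libraries.

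None of the 10 genes for receptor cleavage passed the test. These encode the convertase furin, the ADAM proteases and the γ-secretase subunits, and their log2 fold changes ran from -0.36 to 0.34 with a median of 0.02. The gene nearest the threshold was Aph1b, a γ-secretase subunit, which had 62 and 49 reads in sgNT and 43 and 46 in sgCbfb libraries (log2 fold change -0.36, adjusted p = 0.501 from limma). The 5 glycosylation genes, whose enzymes modify the receptor's extracellular repeats and tune its response to ligands, had log2 fold changes from 0.07 to 0.39 with a median of 0.27, beside 0.04 over all tested genes, and none passed. Poglut1, an O-glucosyltransferase, had 149 and 149 reads in sgNT and 213 and 168 in sgCbfb libraries (log2 fold change 0.27, adjusted p = 0.281 from limma).

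Of the 13 genes for ligand endocytosis, receptor trafficking and turnover, 11 were tested and 1 fell, beside 1.25% of all tested genes that fell. Neurl1b (chr17:26414829-26446349, plus strand), a ubiquitin ligase that promotes endocytosis of Notch ligands, had 684 and 602 reads in the sgNT libraries and 606 and 467 in the sgCbfb libraries, or 201 and 181 against 155 and 146 CPM. Both sgCbfb libraries were below both sgNT libraries. Neurl1b fell by 0.34 on the log2 scale (SE 0.08), to 79.1% of the sgNT level (adjusted p = 0.0172 from limma). Without sgNT replicate 1 the log2 fold change was -0.26 and the adjusted p from limma 0.245, and it was 0.551 without sgCbfb replicate 1 and 0.511 without sgCbfb replicate 2 (log2 fold changes -0.38 and -0.30). The Neurl1b call was also lost under quantile normalisation (log2 fold change -0.35, adjusted p = 0.153 from limma), with no low-value filter (0.640) and with no variance trend (0.420). Numbl, related to the Notch inhibitor Numb and chosen for mention after its values were seen, had 65 and 71 reads in sgNT and 101 and 103 in sgCbfb libraries. Its log2 fold change of 0.51 (interval 0.14 to 0.87) did not pass (adjusted p = 0.147 from limma). Neurl1a and Dtx1 had no reads.

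**Figure D4:**
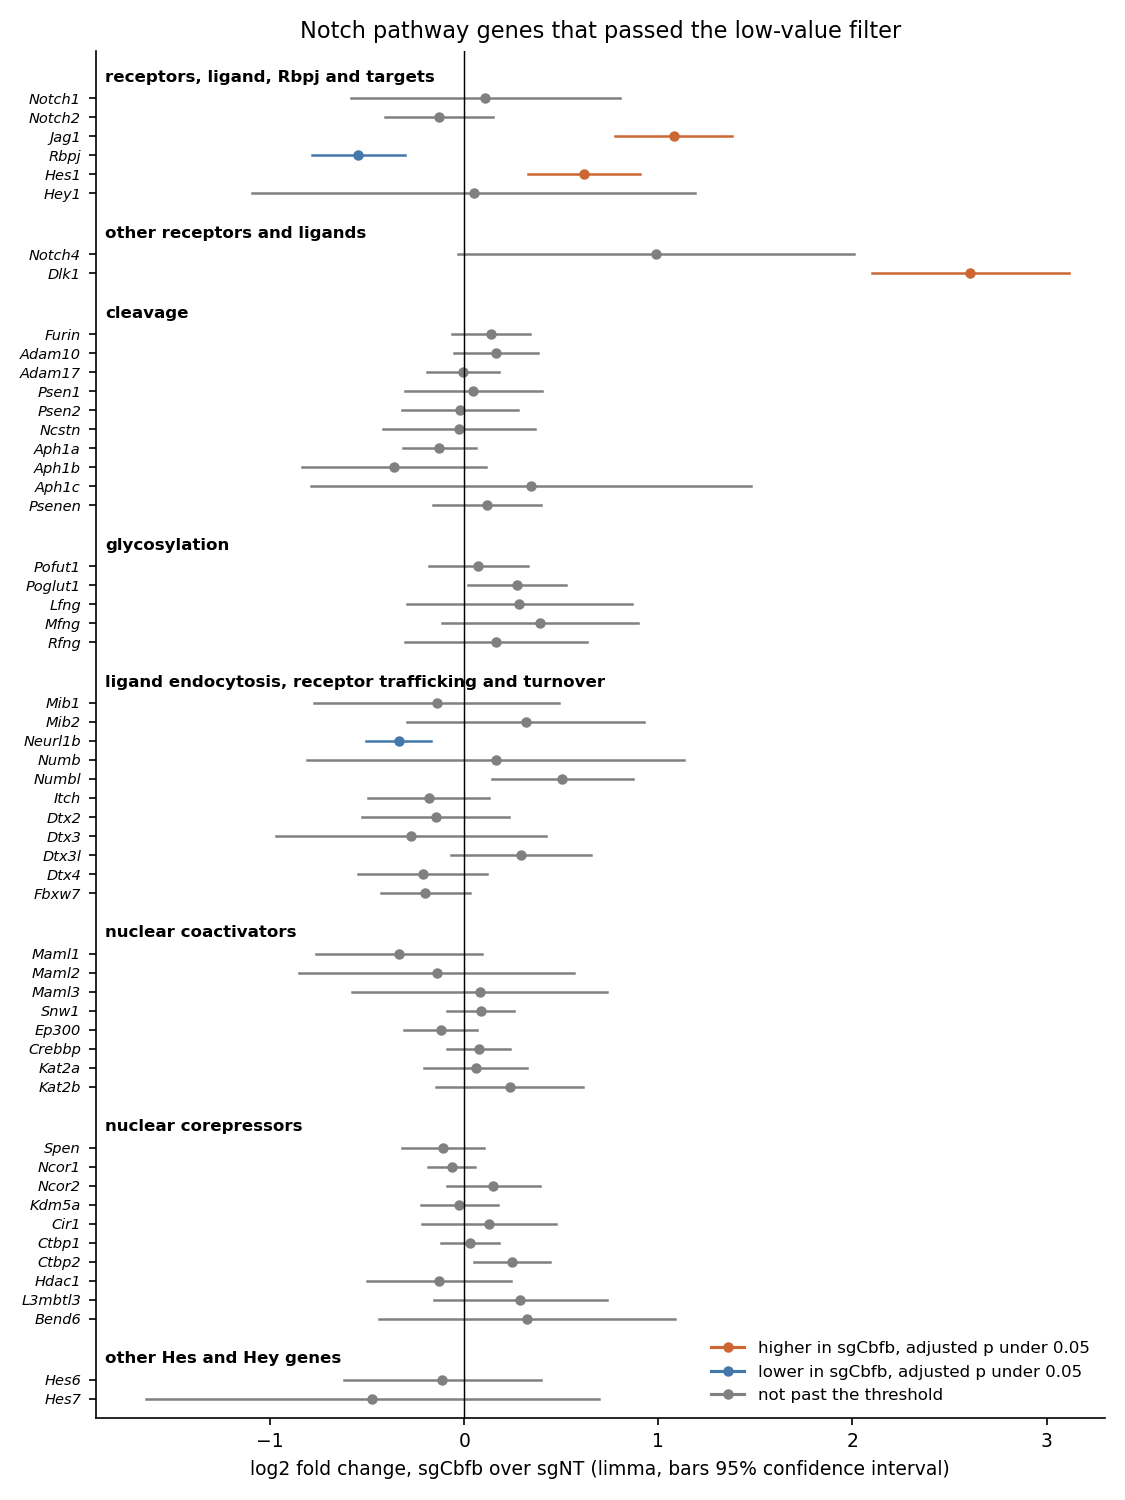
log2 fold change (sgCbfb over sgNT, points) with its 95% confidence interval (bars) for the 6 tested Notch genes and the 48 other tested pathway genes, grouped by role and coloured by limma's call. The intervals of Jag1, Hes1 and Dlk1 lie above 0 and those of Rbpj and Neurl1b below 0, and those of Poglut1, Numbl and Ctbp2 lie above 0 without an adjusted p under 0.05.

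The nuclear partners of RBPJ showed no called change. None of the 8 coactivators passed, with log2 fold changes from -0.34 to 0.23. Maml1, a Mastermind coactivator, had 72 and 72 reads in sgNT and 80 and 44 in sgCbfb libraries (log2 fold change -0.34, adjusted p = 0.488 from limma). None of the 10 corepressors passed, with log2 fold changes from -0.13 to 0.32. Ctbp2, which encodes a C-terminal binding protein corepressor, had 274 and 273 reads in sgNT and 381 and 305 in sgCbfb libraries (log2 fold change 0.25, adjusted p = 0.193 from limma). Of 6 further Hes and Hey genes only Hes6 and Hes7 reached the filter. Hes7, the oscillating gene of the segmentation clock, had 7 and 1 reads in sgNT and 3 and 1 in sgCbfb libraries (log2 fold change -0.47, adjusted p = 0.770 from limma). Hes6, a Hes family member that opposes Hes1, had 43 and 37 against 45 and 33 reads (log2 fold change -0.11, adjusted p = 0.887 from limma). Hes3, Hes5 and Hey2 had no reads and Hes2 had 1.

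**Figure D5:**
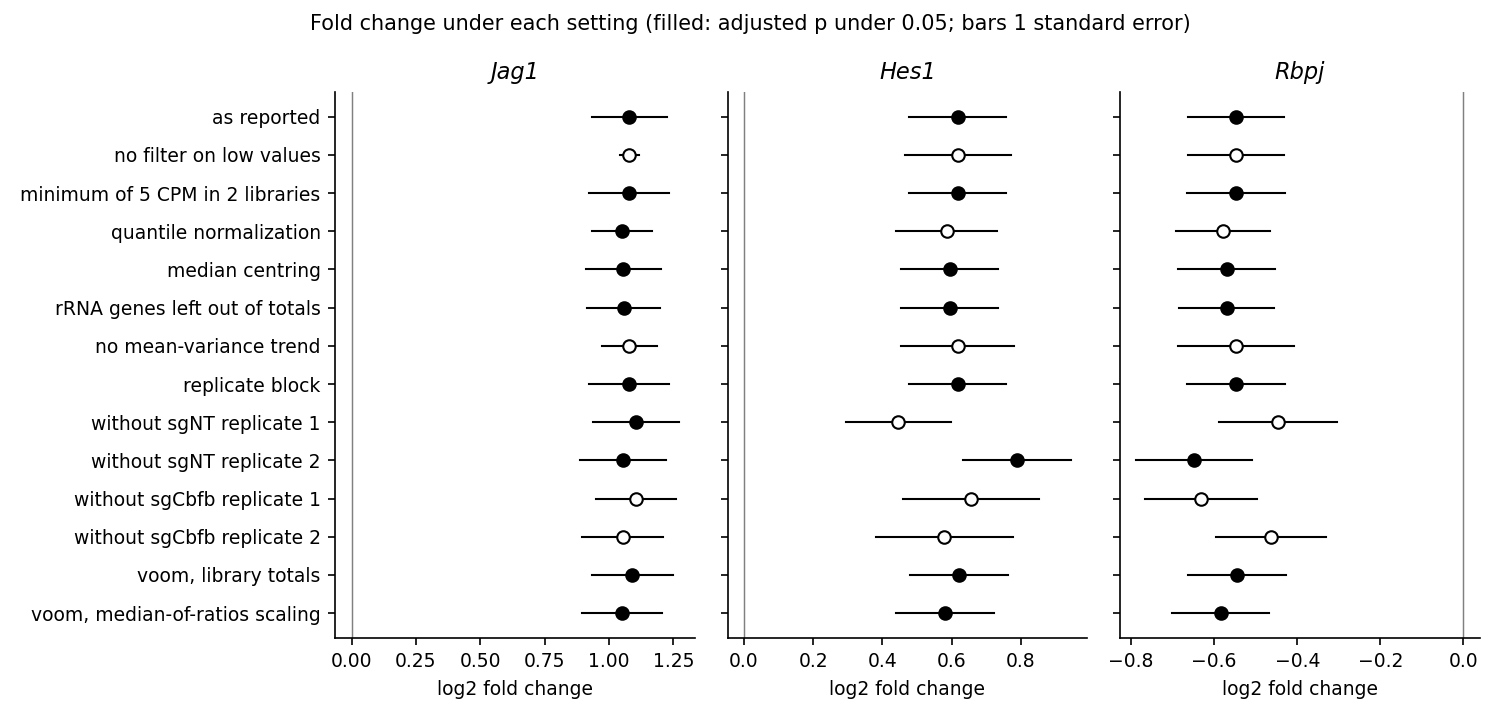
log2 fold change of Jag1, Hes1 and Rbpj (points, with bars of 1 standard error) as reported and under 13 other settings, filled where the adjusted p is under 0.05. The sign is the same throughout for each gene, and the adjusted p passed the threshold in 9 of the 13 for Jag1 and in 7 of the 13 for Hes1 and Rbpj.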

How the data were processed

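RNA from MC38 cells (2 WT and 2 CbfbKO libraries, grouped and numbered by their labels and called sgNT and sgCbfb here) was sequenced by the authors as 3′ mRNA libraries. The submitters' processing notes name cutadapt 1.9, HISAT2 2.1.0 and featureCounts 2.0.1, and the paper gives another version of the last. The build was GRCm38/mm10. The annotation, the use of strand and the treatment of multi-mapping reads are not given in the sources used here. The authors deposited log2 CPM values, 1 column per library. The values carry a prior count of 2, in proportion to the library's total. Above the value shared by genes without reads they step by whole reads (99.992% to 100% of values within 0.1 of a whole number), from which reads were recovered. Totals were 3396192 and 3335116 reads in sgNT and 3907936 and 3189035 in sgCbfb libraries. Ribosomal RNA genes took 12.8% to 15.5%.

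The deposited log2 values were tested with limma 3.58.1 in R 4.3.3 (lmFit, eBayes with a mean-variance trend), two-sided, with Benjamini-Hochberg adjustment over the 12207 genes for which 2 or more libraries had a log2 CPM no lower than 0, at a threshold of 0.05. The study's methods name voom with limma, which takes counts and was run on the recovered reads as an alternative. Fold changes are on the scale of the deposited values, whose prior count understates changes of low genes. The script was tested on simulated data. Replicates differed by more than sampling noise (chi-square per degree of freedom 1.60 over 9911 genes in sgNT and 2.13 over 10082 genes in sgCbfb). The Notch genes and lists were chosen with earlier results of these data known. Named were all 10 Notch genes, Cbfb, each other pathway gene past the threshold and, per list, the tested gene with the smallest unadjusted p. Further receptors, ligands and family members (Notch4, the Dll genes, Dlk2, Numbl, Neurl1a, Dtx1, Hes6 and the other Hes and Hey genes) and marker genes were named outside this rule, after their values were seen. Alternatives were 2 low-value filters, 3 scalings, no trend, a replicate block, leaving out each library and 2 voom fits. Positions are from GENCODE for GRCm38, and promoters are from RefSeq (GRCm38.p6). Scripts used Python 3.11.15 with numpy 2.4.6, pandas 2.3.3 and scipy 1.17.1, and figures matplotlib 3.10.9.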

Additional observations from a re-analysis of the deposited data

How the results depend on the processing

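Under all 13 alternatives Jag1, Hes1, Dlk1, Rbpj, Neurl1b and Notch2 kept their direction (log2 fold change 1.05 to 1.11 for Jag1, 0.45 to 0.79 for Hes1, 2.55 to 2.72 for Dlk1, -0.65 to -0.45 for Rbpj, -0.42 to -0.26 for Neurl1b). The adjusted p from limma ranged from 8.28e-10 to 0.401 for Jag1, from 0.000641 to 0.681 for Hes1 and from 0.000266 to 0.603 for Rbpj. The count of genes called moved more than the fold changes, and the cause was not tested. From 192 higher and 153 lower, it became 2 and 53 with no filter on low values (11447 genes without any read then enter the variance model), 300 and 209 with a minimum of 5 CPM, 39 and 44 with quantile normalisation, 0 and 0 without the trend in the variance (where 1461 genes had an unadjusted p under 0.05, against 1820 as reported), and 174 and 243 by voom with median-of-ratios scaling. Leaving out each library gave 0 to 115 higher and 0 to 86 lower genes. Both counts were 0 without sgCbfb replicate 1 (1104 genes at an unadjusted p under 0.05) and without sgCbfb replicate 2 (1169), where the lone sgCbfb library is assumed to vary like the sgNT libraries. Of the Notch genes, the 3 called became 0 with no filter, 1 (Jag1) with quantile normalisation, 0 without the trend and 0 to 3 with each library left out, with 3 or 4 at an unadjusted p under 0.05 in each of these. The 2 other pathway genes called became 1 (Dlk1) with no filter, 1 (Dlk1) with quantile normalisation, 0 without the trend (3 at an unadjusted p under 0.05) and 0 to 2 with each library left out (5 and 3 at an unadjusted p under 0.05 where none was called). The share of called genes that were higher was 55.7%, and it was 47.0% with quantile normalisation and 41.7% by voom with median-of-ratios scaling. Libraries with the same number showed no shared deviation (correlation -0.0042 over 12207 genes, which are not replicates). The replicate block gave 320 higher and 215 lower genes, and it kept the calls of the 3 Notch genes, Dlk1 and Neurl1b. The Notch1 estimate reversed without sgNT replicate 2 (-0.011) and without sgCbfb replicate 1 (-0.30), ranging from -0.30 to 0.51 over left-out libraries. That of Hey1 reversed with quantile normalisation (-0.048), without sgNT replicate 1 (-0.47) and without sgCbfb replicate 1 (-0.48), ranging from -0.48 to 0.58. Notch3, Heyl, Nrarp and Jag2, with 0 or 1 read per library, went untested, and at this depth a missing transcript and a rare one cannot be told apart. For a gene without reads in a library, counting error alone allows a level of up to about 3 reads there (0.768 to 0.941 CPM).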
